A study of Homo sapiens with 12 samples.

Results

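The comparison described here set RNA bound by J2, an antibody against double-stranded RNA, in IFNAR1 knockout cells against that in wild-type cells when both had received interferon beta. It took 4 of the 12 libraries of the series, the 2 labelled IFNAR1sg with IFNb and the 2 labelled SCR with IFNb, and asked which levels differed with the receptor genotype. All were from NCI-H1944, an established human lung adenocarcinoma line. SCR cells had a wild-type genotype and IFNAR1sg cells an IFNAR1 knockout genotype. The labels do not say whether either was a clone or a pool of edited cells. The series had 6 groups of 2 libraries: each genotype with DMSO, with the MPS1 inhibitor BAY-1217389 (MPS1i, 100 nM), or with recombinant interferon beta (IFNb, 5 ng/ml). The inhibitor, or DMSO, stayed on the cells for 48 h. After its removal came 24 h of culture in which IFNb was present or absent. Whether the IFNb cells had first received DMSO is not stated. The stated purpose of the series was to find transcripts able to form double-stranded RNA whose presence depends on type I interferon after pulsed MPS1 inhibition.

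IFNAR1 and IFNAR2 form the receptor for interferon alpha and beta. The receptor activates the kinases JAK1 and TYK2, which phosphorylate transcription factors such as STAT2. With IRF9, STAT2 takes part in the complex that binds interferon-stimulated response elements and switches on a broad set of antiviral genes, among them the sensors of double-stranded RNA themselves. RNA duplexes in uninfected cells arise from inverted repeats such as paired Alu elements and from transcription of both strands of a locus, which is why a J2 library is read by strand and by position as well as by gene.

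The deposited table counted reads in 5254113 stranded genomic regions. Library totals were 3842532 and 3739443 reads in SCR IFNb and 7430687 and 6783514 in IFNAR1sg IFNb, and the other 8 libraries lay between 4173239 and 7415227. The SCR IFNb libraries stood apart from the rest. Their reads fell in 295367 and 296843 regions, where the other 10 libraries had reads in 566704 to 935974. Regions sharing a base with an exon of their strand took 49.6% and 47.9% of their reads, against 38.1% and 36.6% in IFNAR1sg IFNb, and intronic regions took 19.1% and 19.2%, against 33.0% and 36.1%. Both libraries of the group showed this, so group and library composition cannot be told apart, and the direction of each class of region below is given with its dependence on scaling. Nothing in the labels says that the 2 libraries of a group were separate cultures, so p-values measure only the spread between these libraries. Input RNA was not analysed here. A difference in J2 reads can therefore lie in the amount of a transcript or in its double-stranded share, and fewer cells expressing a transcript and less RNA per cell cannot be told apart.

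The targeted gene was measured first. In an IFNAR1 region next to an exon (hg38 chr21:33343676-33344099, plus strand, sharing 1 exon base), levels in CPM (reads relative to library size, scaled by TMM factors) were 11.5 and 11.7 in SCR IFNb against 2.84 and 1.87 in IFNAR1sg IFNb. Without interferon they were 11.5 and 11.6 in SCR DMSO and 3.33 and 2.07 in IFNAR1sg DMSO. The knockout libraries were lower than the wild-type ones in both treatments, with no overlap. The log2 fold change, IFNAR1sg minus SCR, was -2.28 ± 0.39 (SE, n = 2 per group, adjusted p = 5.11e-06) under IFNb and -2.13 ± 0.37 in DMSO (adjusted p = 0.0018). All of these counts were small, with 31 and 31 reads in SCR IFNb and 18 and 11 in IFNAR1sg IFNb. The other IFNAR1 regions did not all follow. Its reads without exon bases, mostly intronic, were 8 and 0 in SCR IFNb and 25 and 21 in IFNAR1sg IFNb (1.32, adjusted p = 0.0542), and 34 and 33 in SCR DMSO and 24 and 33 in IFNAR1sg DMSO (-0.18, adjusted p = 0.951), so no lower level was seen there. Of 3 regions past the annotated end, the one starting 558 bp past it was lower under IFNb (-1.68, adjusted p = 0.000539) and in DMSO (-1.42, adjusted p = 0.0244). Those starting 11 bp (-0.81, adjusted p = 0.279) and 1801 bp past it (0.36, adjusted p = 0.851) were not called under IFNb. In DMSO they were not called either, at -2.17 (adjusted p = 0.0517) for the first and -0.40 (adjusted p = 0.966) for the second. The labels do not place the guide's cut relative to these regions.

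Of 89111 regions tested with edgeR, 11094 (12.4%) were lower and 13434 (15.1%) higher in IFNAR1sg at a Benjamini-Hochberg adjusted p under 0.05, the threshold for every call below. The classes of region split in opposite directions. Of 9630 exon-sharing regions 3502 (36.4%) were lower and 424 higher, with a median log2 fold change of -0.57. Of 14775 regions with a gene only on the other strand, called antisense here, 4316 (29.2%) were lower and 366 higher, with a median of -0.60. Most of these calls covered exons of the opposite gene: 4130 of 12815 antisense regions that did so were lower (32.2%), against 186 of 1960 that did not. Intronic regions went the other way, with 2025 lower and 11282 (22.2%) higher of 50742 and a median of 1.02. Intergenic regions were even, with 1251 lower and 1362 higher of 13964. The 24528 calls became 13490 (7167 lower, 6323 higher) and 13885 (7249 and 6636) without the first or second SCR IFNb library, 14552 (8618 and 5934) by the Wald test of DESeq2 and 14820 without the second IFNAR1sg IFNb library.

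**Figure D1:**
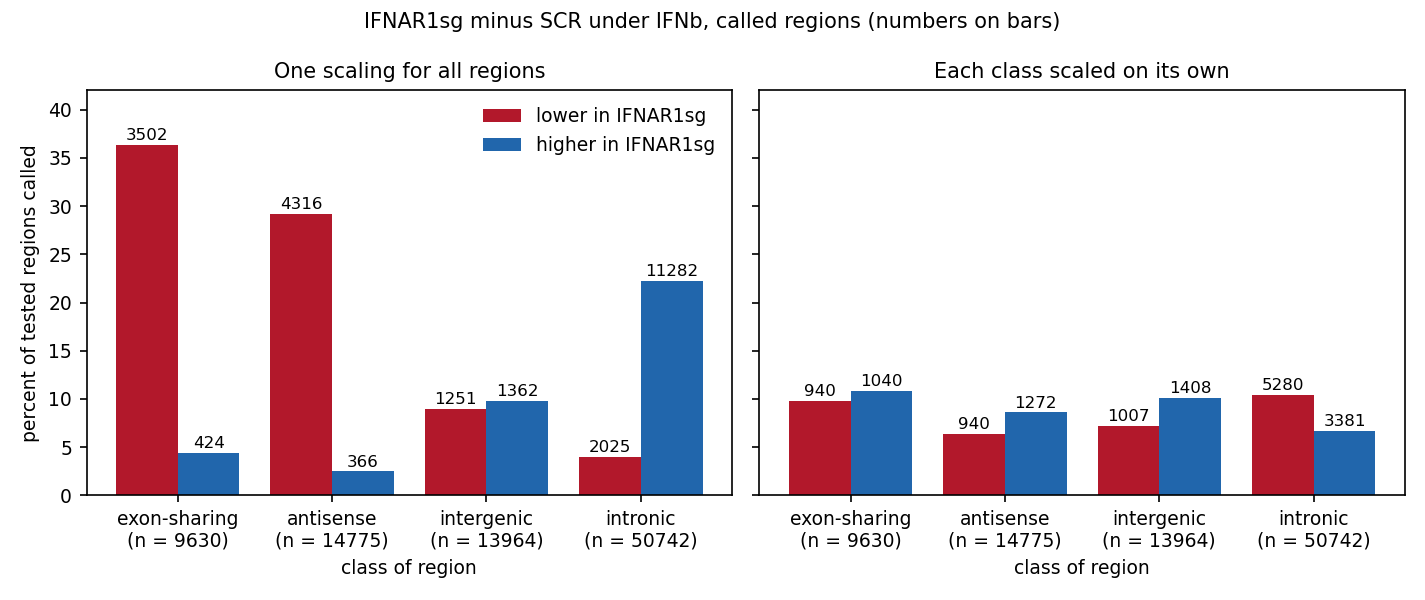
Percent of tested regions called lower (red) or higher (blue) in IFNAR1sg than in SCR under IFNb, by class of region, with counts on the bars. The left panel scales all regions together and the right panel scales each class by its own TMM factors: intronic regions go from 2025 lower and 11282 higher to 5280 lower and 3381 higher, and exon-sharing regions from 3502 lower and 424 higher to 940 lower and 1040 higher.

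These class directions are relative to the scaling. When each class was scaled within itself, exon-sharing regions had 940 lower and 1040 higher calls, antisense regions 940 and 1272, and intronic regions 5280 and 3381. Such factors centre a class near 0 by construction, so these counts cannot test its direction. Without TMM factors exon-sharing regions had 1484 lower and 926 higher calls, and antisense regions 1928 and 1031. Intronic regions then had 862 and 18808, and intergenic regions 554 and 2612. A level is thus a share of the library, and the members below are read against the median of their own kind of feature. The strand setting of the counting is not stated, so reads of a gene and of its opposite-strand partner cannot be told apart. Most exon-sharing regions (8296 of the 9630 tested) shared at most 2 bases with an exon, so their reads may belong to the adjoining exon.

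The regions with the smallest p among those lower in IFNAR1sg lay at antiviral genes, and 6 of the 10 named by p lay opposite a gene's exons or beyond its annotated end. The first covered the strand opposite MX2, which encodes an interferon-induced dynamin-like GTPase that blocks nuclear import of viral genomes (chr21:41361814-41410216, minus strand, over 13047 exon bases of MX2). Its level was 484 and 599.6 CPM in SCR IFNb against 35.1 and 21.1 in IFNAR1sg IFNb, and 2.07 to 4.45 in the 4 DMSO libraries. The difference was -4.27 ± 0.19 on the log2 scale (adjusted p = 3.71e-31). Knockout libraries thus lay below the wild type and above every DMSO library.

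An intronic region of LIPA, the lysosomal acid lipase gene, held 246 and 292 CPM in SCR IFNb against 13.3 and 12.1 in IFNAR1sg IFNb (chr10:89301917-89308325, minus strand; -4.40 ± 0.20, adjusted p = 1.15e-30). It spans 2538 exon bases of IFIT2, an interferon-induced RNA-binding gene that lies inside LIPA on the other strand. A TRIM5 intronic region (chr11:5689433-5716546, minus strand) lay over 4869 exon bases of TRIM22 in the same way, and held 597 and 561 CPM against 43.3 and 30.2 (-3.97 ± 0.19, adjusted p = 1.88e-29). The level at these introns cannot be told apart from that of the exons on the other strand.

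RIGI, the sensor of short double-stranded RNA with triphosphate ends, gave a pair of these regions. One adjoined its exon (chr9:32466441-32466642, minus strand), at 661 and 637 CPM in SCR IFNb and 64.0 and 61.8 in IFNAR1sg IFNb (-3.37 ± 0.16, adjusted p = 6.93e-30). The other began 714 bp past its annotated end, opposite ACO1 (chr9:32384578-32454991, minus strand), at 1093 and 1042 against 139 and 126 (-3.01 ± 0.15, adjusted p = 1.88e-29). DMSO libraries held 36.2 to 48.8 CPM there. At OAS2, whose enzyme makes the oligoadenylates that activate RNase L, an exon-sharing region (chr12:112998410-112999191, plus strand) held 860.2 and 781 CPM in SCR IFNb against 103 and 99.7 in IFNAR1sg IFNb (-3.01 ± 0.15). On the opposite strand ENSG00000257452 (chr12:112908678-113014032, minus strand) held 3211 and 3338 against 501 and 396 (-2.87 ± 0.14, adjusted p = 1.88e-29). Regions of either strand at OAS2 were thus lower in the knockout, with the limit on telling strands apart given above.

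The remaining named regions were exon-sharing ones of IFI6 and IFI16 and the strand opposite B2M. IFI6 encodes an interferon-induced membrane protein, and its region (chr1:27667389-27668226, minus strand) held 788 and 955 CPM against 98.1 and 116 (-3.02 ± 0.15). The IFI16 region (chr1:159010161-159010253, plus strand), from the gene of a nuclear DNA sensor, held 818 and 759.5 against 117 and 117 (-2.75 ± 0.15). Opposite B2M, the invariant chain of MHC class I, the level was 529 and 523 against 69.8 and 49.95 (chr15:44711415-44718702, minus strand; -3.13 ± 0.17). In DMSO it was 37.5 and 56.7 in SCR and 30.2 and 32.5 in IFNAR1sg. Only the second SCR DMSO library thus overlapped the knockout IFNb ones. Within IFNAR1sg the level was higher with IFNb than in DMSO (0.93 ± 0.17, adjusted p = 0.000459).

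The 10 named regions higher in IFNAR1sg differed by 1.85 to 2.80 on the log2 scale. The one with the smallest p began 10 bp past ALYREF, an mRNA export adaptor gene (chr17:81881107-81887834, minus strand), at 242 and 283 CPM in SCR IFNb against 914 and 1010.4 in IFNAR1sg IFNb (1.88 ± 0.12, adjusted p = 1.09e-21). DMSO libraries held 1175 to 1294, so the knockout level lay nearer to DMSO than the wild-type level did. Introns of TXNRD1 (2.10), ASS1 (2.80), ABCC1 (2.43) and AKR1C3 (2.77) followed, together with regions at ENSA (1.99), RPS9, USH1C, ENSG00000266302 and ENSG00000250753. TXNRD1, thioredoxin reductase, held 101 and 106 CPM against 436 and 451 there, and ASS1, argininosuccinate synthase, held 15.2 and 13.2 against 91.3 and 107. For both, the IFNAR1sg IFNb libraries and the DMSO libraries were of the same order. DMSO libraries held 452 to 549 at TXNRD1 and 70.3 to 112 at ASS1. At ENSA the knockout held 181 and 197 with IFNb against 288 and 349 in DMSO (-0.75, adjusted p = 0.000639).

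Reads were next summed per gene over regions on its strand that shared no exon base, mostly introns. Of 13955 gene sums 957 (6.86%) were lower and 5627 (40.3%) higher in IFNAR1sg, and the median was 0.63. TMM factors from the gene sums themselves, which centre the set near 0 by construction, gave a median of 0.03, with 2317 lower and 2458 higher. The 10 lower sums with the smallest p were TRIM5, RMI2, LIPA, IFIT1, PSMB9, PATL1, CMPK2, IFIH1, GBP1P1 and CHROMR, all lower under each scaling tried.

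**Figure D2:**
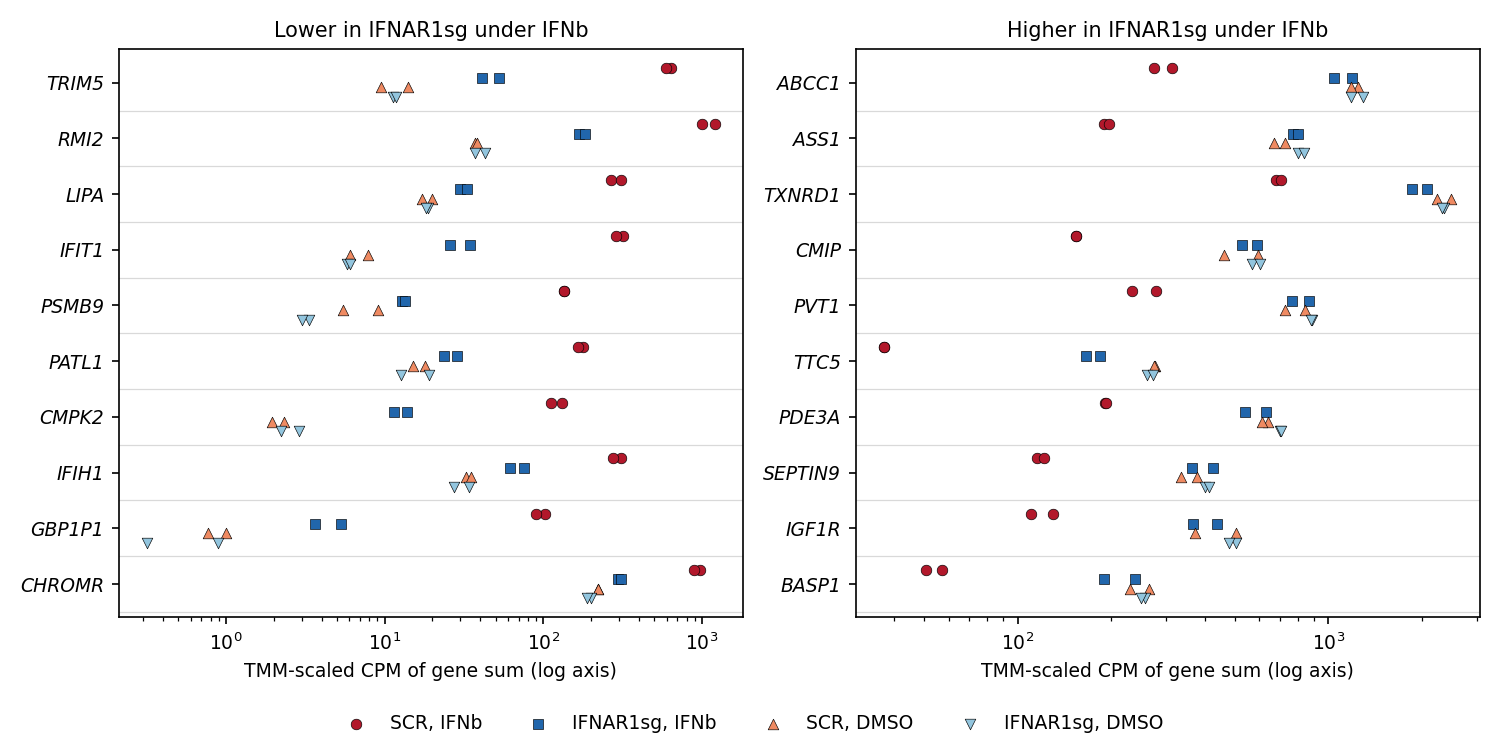
Level of the 10 lower (left) and 10 higher (right) gene sums with the smallest p, in TMM-scaled CPM on a log axis, 1 point per library for SCR and IFNAR1sg with IFNb or DMSO. In the left panel the SCR IFNb libraries (TRIM5: 641 and 596) lie to the right of IFNAR1sg IFNb (52.3 and 41.1) and DMSO (9.5 to 13.9); in the right panel they lie to the left of both (ABCC1: 275 and 313 against 1045 and 1196, DMSO 1183 to 1290.1).

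IFIT1 encodes a protein that holds RNA whose cap marks it as foreign (gene at chr10:89392546-89406486, plus strand). Its sum was 319.7 and 288 CPM in SCR IFNb, 34.4 and 25.8 in IFNAR1sg IFNb and 5.78 to 7.83 in DMSO, a difference of -3.33 ± 0.14 (adjusted p = 3.98e-48). IFIH1 encodes MDA5, the sensor of long double-stranded RNA, and its sum was 311 and 274 against 75.8 and 61.7 (-2.09 ± 0.12, adjusted p = 1.73e-34). For both genes every IFNAR1sg IFNb library lay between the wild-type and the DMSO libraries.

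RMI2, a subunit of the complex that dissolves recombination intermediates, held 997 and 1199 CPM in SCR IFNb, 168 and 184 in IFNAR1sg IFNb and 37.2 to 43.2 in DMSO (-2.64 ± 0.10, adjusted p = 1.63e-52). PATL1, a scaffold of mRNA decapping, held 178 and 164 against 28.6 and 23.6 (-2.71 ± 0.15). CMPK2, a mitochondrial nucleotide kinase, held 130.5 and 112 against 13.9 and 11.4 (-3.25 ± 0.18). The largest difference of the 10 was at GBP1P1, a pseudogene of GBP1, with 103 and 89.5 against 3.63 and 5.27 (-4.43 ± 0.25), and its reads may be shared with the parent gene where the counting split them.

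The position of the reads differed among these sums. In the SCR IFNb libraries 93.6% of the TRIM5 reads lay in regions over exons of a gene on the other strand, with TRIM22 the main partner. The same held for 95.7% of LIPA reads, mostly at IFIT2, for 96.3% of PSMB9 reads, mostly at TAP1, and for 67.8% of CHROMR reads, mostly at PRKRA. It held for 8.33% at CMPK2, whose neighbour is RSAD2, for 0.31% at RMI2 and for 0.11% at PATL1. IFIT1, IFIH1 and GBP1P1 had 0%. The sums of TRIM5, LIPA, PSMB9 and CHROMR were thus largely reads at the exons of an opposite gene.

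Promoters of the genes at issue were read for the core of the interferon-stimulated response element, searched as GAAA, any 2 bases, then GAAA, on both strands of the 250 bases before the start site (RefSeq, GRCh38.p14; overlapping matches counted). It was in 1061 of 35116 promoters in the RefSeq table (3.02%) and in 231 of the 9777 tested gene sums with a promoter entry (2.36%). Among sums lower in IFNAR1sg it was in 46 of 553 with an entry (8.32%), and among higher ones in 71 of 4406 (1.61%). Of the 50 lower sums with the smallest p, 27 had an entry and 9 of these held the letters (33.3%), against 2 of 35 among the 50 higher ones (5.71%). In the 6 interferon lists described next it was in 35 of 79 genes with an entry (44.3%). The last 200 bases before the start of 3 lower genes with matches are shown with the matches in capitals, on either strand, next to PATL1 (lower) and ASS1 (higher), which had none. A match is not particular to lower genes: TXNRD1, one of the 10 named higher sums, had one at -192.
IFIT1, chr10:89392423-89392622, plus strand: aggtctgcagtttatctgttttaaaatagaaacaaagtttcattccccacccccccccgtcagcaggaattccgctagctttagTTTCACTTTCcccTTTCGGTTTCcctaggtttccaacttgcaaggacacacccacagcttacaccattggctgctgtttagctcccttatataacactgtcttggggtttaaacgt
IFIH1, chr2:162318685-162318884, minus strand: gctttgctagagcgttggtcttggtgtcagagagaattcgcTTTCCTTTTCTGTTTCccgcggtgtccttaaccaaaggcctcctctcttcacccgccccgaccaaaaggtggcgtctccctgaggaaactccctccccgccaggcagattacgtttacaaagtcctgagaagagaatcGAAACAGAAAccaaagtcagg
IFI6, chr1:27672193-27672392, minus strand: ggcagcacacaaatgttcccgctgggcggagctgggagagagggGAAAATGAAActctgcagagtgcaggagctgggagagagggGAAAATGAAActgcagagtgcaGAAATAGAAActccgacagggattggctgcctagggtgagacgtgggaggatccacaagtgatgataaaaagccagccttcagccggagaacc
PATL1, chr11:59669038-59669237, minus strand: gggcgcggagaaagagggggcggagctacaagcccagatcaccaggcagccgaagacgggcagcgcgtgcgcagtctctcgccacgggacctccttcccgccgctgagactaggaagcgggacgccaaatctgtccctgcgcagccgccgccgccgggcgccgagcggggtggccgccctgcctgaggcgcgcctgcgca
ASS1, chr9:130444507-130444706, plus strand: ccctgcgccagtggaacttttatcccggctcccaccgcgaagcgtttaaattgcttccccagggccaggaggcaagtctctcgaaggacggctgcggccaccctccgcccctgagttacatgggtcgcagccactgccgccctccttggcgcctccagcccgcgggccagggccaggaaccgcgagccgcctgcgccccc
Counted from the start site, the first bases of the matches were at -116 and -103 in IFIT1, at -159, -153 and -21 in IFIH1, where the first 2 overlap, and at -156, -115 and -93 in IFI6. A match is a description of the letters and not a bound site. PSMB9, LIPA, CMPK2 and RIGI had no match in this window, and RMI2, GBP1P1 and CHROMR had no entry.

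Interferon genes were then read by role, in 6 lists of 107 genes in all. Of the 86 measured as gene sums 70 were lower and 4 higher in IFNAR1sg, with a median log2 fold change of -1.49 against 0.63 over all gene sums. Over all alternatives the lower calls numbered 59 to 80 and the higher calls 2 to 7. As exon-sharing sums, which cover 5524 genes of which 2479 (44.9%) were lower and 189 (3.42%) higher with a median of -0.59, 49 of 56 measured list genes were lower and 1 higher, with a median of -2.13. The 4 higher gene sums were JAK1, STAT3, MAVS and ZC3HAV1, the last 2 named here after their values were seen.

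**Figure D3:**
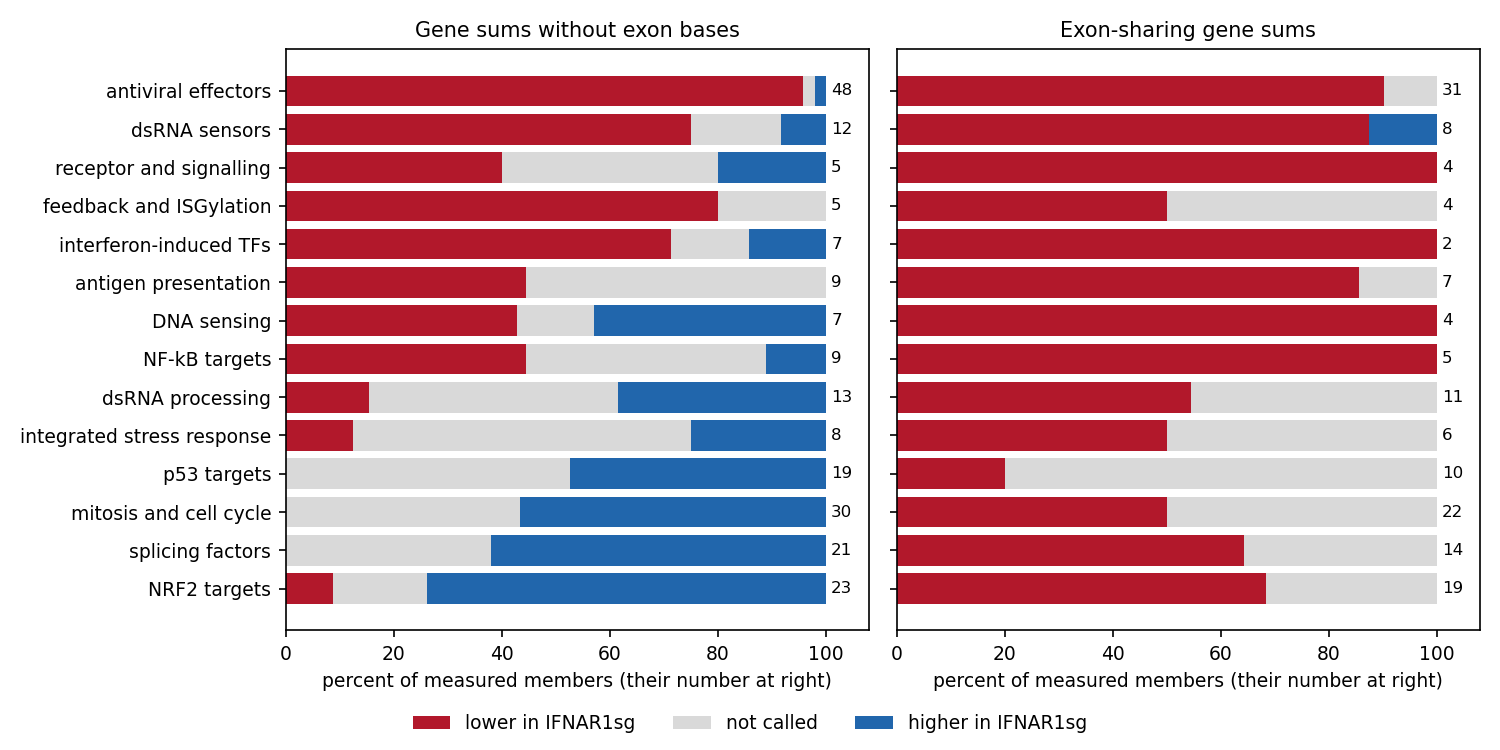
Percent of the measured members of each gene list that were lower (red), not called (grey) or higher (blue) in IFNAR1sg than in SCR under IFNb, with the number measured at the right; the left panel uses gene sums without exon bases and the right panel exon-sharing sums. Antiviral effectors and dsRNA sensors are mostly lower in both panels (46 of 48 and 9 of 12 at left), while NRF2 targets go from 17 of 23 higher at left to 13 of 19 lower at right.

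Among receptor and signalling genes, STAT2 was lower and JAK1 higher. STAT2, a transcription factor phosphorylated at the receptor, held 8.18 and 10.2 CPM in SCR IFNb against 1.42 and 2.21 in IFNAR1sg IFNb (-2.33 ± 0.45). JAK1 went in opposite directions by position: its intronic sum was 12.6 and 14.7 against 21.6 and 25.7 (0.79 ± 0.23, adjusted p = 0.00262), and its exon-sharing sum 64.7 and 55.7 against 20.9 and 22.9 (-1.46 ± 0.19, adjusted p = 9.01e-08). Without the first SCR IFNb library the intronic difference (0.69) no longer passed the test. TYK2 was at 1.11 and 4.14 against 3.95 and 3.40, which did not pass the test (0.49, adjusted p = 0.472).

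Feedback and ISGylation genes, which restrain the response or attach the ubiquitin-like ISG15, had 4 of 5 measured members lower and none higher. USP18, the protease that removes ISG15 and dampens receptor signalling, held 124 and 136 CPM in SCR IFNb, 29.8 and 29.2 in IFNAR1sg IFNb and 4.22 to 6.50 in DMSO (-2.14 ± 0.16, adjusted p = 2.56e-25). ISG15 held 27.5 and 30.8 against 9.32 and 11.6 (-1.48 ± 0.24). UBE2L6 (-1.99) and HERC5 (-1.53, adjusted p = 0.0137), enzymes of ISG15 attachment, were lower as well. HERC5 lost its call without the first SCR IFNb library (-1.11) or the first IFNAR1sg IFNb library (-1.08). HERC6 did not pass the test, at 24.2 and 28.2 against 21.6 and 23.4 (-0.22, adjusted p = 0.407). Both of its IFNb groups lay above its DMSO libraries at 8.0 to 11.8.

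Of 7 interferon-induced transcription factors measured, 5 were lower and STAT3 higher. ETV7 had the largest difference, with 12.6 and 9.40 CPM against 0.79 and 1.36 (-3.34 ± 0.60). IRF7, the factor that amplifies interferon alpha production, held 11.5 and 10.5 against 1.11 and 2.55 (-2.59 ± 0.48, adjusted p = 1.57e-06). NMI (-1.27), BATF2 (-1.38) and IRF1 (-3.0, adjusted p = 0.0277) were lower too, IRF1 from levels of at most 1.88 CPM. Without the first SCR IFNb library BATF2 (-1.04) was not called, and neither was IRF1 without the second SCR IFNb library (-2.60) or the first IFNAR1sg IFNb library (-2.06). STAT3 held 28.3 and 34.2 against 65.4 and 75.8 (1.17 ± 0.16), and IRF2 did not pass the test (0.38, adjusted p = 0.106).

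Of 12 sensors of double-stranded RNA and their partners measured, 9 were lower and 1 higher. Besides IFIH1, RIGI held 175 and 163 CPM in SCR IFNb against 52.1 and 55.9 in IFNAR1sg IFNb (-1.65 ± 0.12, adjusted p = 4.26e-24). OAS1 held 94.4 and 81.3 against 20.8 and 21.2 (-2.06 ± 0.17), and OAS3 129 and 121 against 41.1 and 46.9 (-1.51 ± 0.14). MAVS, the mitochondrial adaptor of RIGI and IFIH1, was the one higher, with 7.81 and 6.02 against 17.5 and 20.7 (1.46 ± 0.28, adjusted p = 4.81e-06). Among exon-sharing sums 7 of 8 sensors were lower. These were OAS2 (-3.01), RIGI (-3.35), OASL (-2.97), OAS1 (-2.18), IFIH1 (-2.00), ADAR (-1.55) and EIF2AK2 (-0.86), with MAVS higher (0.63, adjusted p = 0.0343). EIF2AK2 encodes the kinase PKR and ADAR the enzyme that edits adenosine in duplexes. ADAR exon-sharing reads were 303 and 295 CPM against 108 and 95.1, whereas its intronic sum did not pass the test (-0.28, adjusted p = 0.148). The gene sum of EIF2AK2, named after its values were seen, differed less: 264 and 268 against 198 and 186, with 92 to 104 in DMSO (-0.47 ± 0.10, adjusted p = 5.81e-05).

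Antiviral effectors were the largest list, with 46 of 48 measured members lower, 1 higher and a median of -1.56. After TRIM5, IFIT1 and CMPK2 came DDX60L, a helicase-like gene, with 276 and 239 CPM against 62.4 and 67.3 (-1.99 ± 0.12, adjusted p = 8.65e-31). ZC3HAV1, which encodes the zinc-finger antiviral protein ZAP, was higher in its introns, at 131 and 116 against 188 and 210 (0.68 ± 0.11), and lower when exon-sharing regions were added to the sum (-0.75). IFIT5, named after its values were seen like ZC3HAV1, was the member that did not pass the test (-1.16, adjusted p = 0.249). Among exon-sharing sums 28 of 31 were lower. The 4 with the smallest p there were led by IFI6 and included TRIM38, at 395 and 393 against 55.7 and 49.6 (-2.90 ± 0.14), and APOL2, an apolipoprotein L gene, at 461 and 456 against 87.6 and 93.4 (-2.34 ± 0.13). DDX60L was the other one (-2.52).

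Antigen presentation genes had 4 of 9 measured gene sums lower and none higher, and 6 of 7 exon-sharing sums lower. NLRC5, the transactivator of MHC class I genes, held 122 and 117 CPM against 34.3 and 31.1 as a gene sum (-1.87 ± 0.15, adjusted p = 7.56e-23). HLA-E (-2.42) and PSME2 (-1.41, adjusted p = 0.0105) were lower too. PSME2 lost its call without the first SCR IFNb library (-1.27) or the first IFNAR1sg IFNb library (-1.35). In exon-sharing regions ERAP2, a peptidase that trims peptides for MHC class I, held 49.8 and 46.6 against 6.63 and 6.12 (-2.91 ± 0.28). TAP1, the peptide transporter, held 24.2 and 28.6 against 3.79 and 3.74 (-2.80 ± 0.34). B2M (-2.08), NLRC5 (-2.74), HLA-F (-3.82) and ERAP1 (-1.29) completed the lower ones, and PSMB10 did not pass the test (-0.11, adjusted p = 0.924). Reads of HLA genes may be divided among near-identical copies.

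Around the 107 loci the difference reached every kind of region. Of 466 tested intronic regions of list genes 179 were lower and 12 higher, and of 90 exon-sharing ones 77 were lower and none higher. Of 101 tested regions on the strand opposite a list gene 86 were lower and 2 higher. Of 80 regions within 5000 bp past the annotated end 52 were lower and 2 higher. By gene, 70 of 77 with a tested opposite-strand region and 35 of 46 with one past the end had at least 1 that was lower. The same count over all genes was not made, so these counts per gene have no background. Over all tested regions the share lower was 3.99% of intronic, 36.4% of exon-sharing and 29.2% of antisense regions. It was 9.92% of intergenic regions up to 5000 bp past a gene. Some regions past a list gene were antisense, such as that past RIGI opposite ACO1, so the 9.92% does not cover all of them. A region past a list gene can also lie opposite another, as that past TRIM34 does opposite TRIM5. In a region starting 51 bp past RSAD2, the gene of the antiviral enzyme viperin, for example, the level was 69.5 and 64.0 CPM in SCR IFNb against 1.74 and 1.70 in IFNAR1sg IFNb (chr2:6898290-6898566, plus strand; -5.26 ± 0.33). The table does not pair reads of the 2 strands into duplexes.

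Some interferon genes lay above their DMSO level in the knockout cells given interferon. The same fit gave the contrast of IFNAR1sg IFNb with IFNAR1sg DMSO, which shares the knockout IFNb libraries with the comparison above, and its values are set beside it without a test of the relation. Over all gene sums 87 (0.623%) were higher and 91 lower with IFNb in IFNAR1sg cells, with a median of -0.06. Of the 86 list genes 42 were higher and none lower, with a median of 0.97, and 33 to 49 were higher over the alternatives. The 178 calls of this contrast became 83 without the first IFNAR1sg IFNb library and 72 without the second IFNAR1sg DMSO library. MX2, named after its values were seen, was at 61.0 and 64.0 CPM in SCR IFNb, 7.26 and 7.31 in IFNAR1sg IFNb and 0 to 1.00 in DMSO. USP18 rose by 2.53 ± 0.22 on the log2 scale with IFNb in the knockout (adjusted p = 8.92e-19) and HERC6 by 1.34 (adjusted p = 1.87e-06). Over the 72 list genes with at least 5 CPM in both SCR IFNb libraries, the knockout held 7.55% to 277% of the wild-type level, with a median of 35.6%. The lowest shares were at TRIM5 (7.55%), TRIM22 (9.26%) and PSMB9 (9.72%), and shares above 100 were at MAVS, STAT3, JAK1, ZC3HAV1, TAPBP and IRF2, of which TAPBP and IRF2 did not pass the test. Over 48 exon-sharing sums the median share was 21.2%. The floor was set on the SCR IFNb libraries, against which the shares are taken, so it favours low shares. Over all features, without this floor, the median log2 fold change was 0.63 for gene sums and -0.59 for exon-sharing sums. The IFNAR1 region next to an exon, given above, also kept reads in IFNAR1sg.

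Gene sums higher in the knockout had other members. ABCC1, an exporter of glutathione conjugates, held 275 and 313 CPM in SCR IFNb, 1045 and 1196 in IFNAR1sg IFNb and 1183 to 1290.1 in DMSO (1.93 ± 0.09, adjusted p = 1.03e-43). ASS1, which makes the precursor of arginine, held 189 and 197 against 769.7 and 798 (2.02 ± 0.09). The IFNAR1sg IFNb and DMSO libraries of both genes were close together, and the SCR IFNb libraries lay apart below them. TXNRD1 (1.51), CMIP (1.85), the long noncoding RNA PVT1 (1.67), TTC5 (2.23), the phosphodiesterase PDE3A (1.61), SEPTIN9 (1.74), the growth factor receptor IGF1R (1.74) and BASP1 (1.99) made up the 10. At TTC5 the knockout level was lower with IFNb, at 166 and 184 CPM, than in DMSO, at 261 and 272 (-0.61, adjusted p = 4.04e-06). With exon-sharing regions added to the sums, TXNRD1 (-0.63) and CMIP (-0.18) were below 0.

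Targets of NRF2, the factor that induces antioxidant and glutathione genes, had 17 of 23 measured members higher and 2 lower, with a median of 0.93 against 0.63 over all. SLC7A11, the cystine importer, held 113 and 96.7 CPM against 320 and 343 (1.66 ± 0.11), and the transketolase gene TKT 54.3 and 62.8 against 162 and 168 (1.49 ± 0.12). With gene sums scaled by their own factors the list had 13 higher and 8 lower, and with exon-sharing regions added 10 higher and 11 lower. Among exon-sharing sums alone 13 of 19 were lower and none higher. The direction of this list therefore depended on scaling and on which regions were summed.

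The other lists outside the interferon response showed the same dependence. Their counts stand against 40.3% of all gene sums being higher and 44.9% of all exon-sharing sums being lower, and several are near these shares. Mitosis and cell cycle genes had 17 of 30 higher and none lower, led by TPX2, a spindle assembly factor, with 19.0 and 23.7 CPM against 78.8 and 82.4 (1.92 ± 0.17), CCNB1 (1.87), ASPM (1.28) and KIF23 (1.53). By their own scaling 10 were higher and 4 lower, and as exon-sharing sums 11 of 22 were lower. With exon-sharing regions added TPX2 was at -0.21 and HNRNPC at -0.0419. Splicing factors had 13 of 21 higher, led by HNRNPC (1.53), and 9 of 14 exon-sharing sums lower. Targets of p53 had 9 of 19 higher, near the share over all gene sums, led by DDB2, a damage recognition gene, with 17.1 and 9.78 against 46.7 and 41.5 (1.71 ± 0.20). By their own scaling 3 were higher and 1 lower. Integrated stress response genes had 2 of 8 higher, PSAT1 (1.18) and PHGDH (0.87), and ATF3 lower (-0.88). Without the second SCR IFNb library neither PSAT1 (0.63) nor PHGDH (0.47) was called, and PHGDH was not without the second IFNAR1sg IFNb library (0.80).

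NF-kB targets had 4 of 9 lower and 1 higher, and all 5 exon-sharing sums lower. CXCL5, a neutrophil chemokine, held 91.1 and 105 CPM in SCR IFNb against 32.4 and 34.0 in IFNAR1sg IFNb (-1.57 ± 0.15, adjusted p = 3.04e-18). CXCL8 (-1.69) and TNFAIP3 (-2.49), a brake on NF-kB signalling, were lower, and NFKB1 higher (0.70). CXCL8 lost its call without the first SCR IFNb library (-1.03) and NFKB1 without the second (0.57). Of 13 genes for processing of double-stranded RNA 2 were lower, PNPT1 (-0.84) and PRKRA (-1.39), and 5 higher, which is near the 40.3% over all gene sums. DHX9, a helicase that unwinds duplexes, was one of the 5, with 23.8 and 18.1 against 72.2 and 87.3 (1.93 ± 0.17), but its exon-sharing sum was lower (-0.79). Of 7 genes in the DNA-sensing list 3 were lower, IFI16 (-1.80), ENPP1 (-1.97) and AIM2 (-2.56). CGAS (0.43), TBK1 (0.45) and LMNB1 (1.89), the last a gene of the nuclear lamina, were higher, also near that share. By their own scaling CGAS (-0.17) and TBK1 (-0.15) were below 0. Without the first SCR IFNb library AIM2 (-1.52), CGAS (0.37) and TBK1 (0.09) were not called, and TBK1 was not without either IFNAR1sg IFNb library (0.45 and 0.46). With exon-sharing regions added, DHX9 (-0.45), LMNB1 (-0.29) and TBK1 (-0.26) were below 0.

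The 2 measures of a gene were set side by side. Of 4545 genes measured both without exon bases and in exon-sharing regions, 1180 were higher in the first and lower in the second, and 2 were the reverse. A further 203 were lower in both and 115 higher in both. The median was 0.76 without exon bases and -0.59 in exon-sharing regions. These libraries also differed in the share of exon-sharing and intronic reads, as given above, and the part of that in single genes was not tested.

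**Figure D4:**
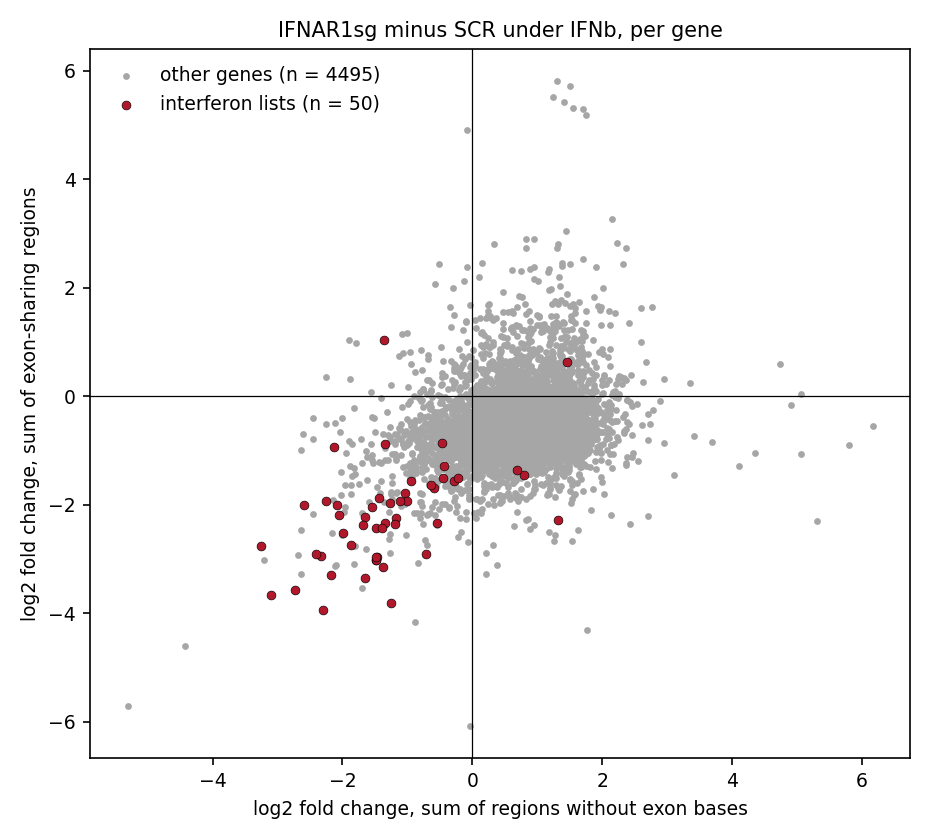
Log2 fold change, IFNAR1sg minus SCR under IFNb, of each gene's sum without exon bases (x axis) and of its exon-sharing sum (y axis), for 50 genes of the interferon lists (red) and 4495 others (grey). Most grey points lie right of 0 and below 0 (medians over all 4545 genes 0.76 and -0.59), and most red points lie left of 0 and below 0.

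Without interferon few regions were called between the genotypes. IFNAR1sg minus SCR in DMSO, which shares no library with the comparison under IFNb, gave 69 called regions (0.0774%), 57 lower and 12 higher, and 8 called gene sums (0.0573%). None of the 86 interferon list genes was called, and their median was 0.06. Of the 57 lower regions 44 were antisense, as were 14775 of the 89111 tested. Antisense regions took 19.9% of reads in the second SCR DMSO library, against 14.9% to 15.4% in the other DMSO libraries. Most of the 57 lower calls were lost when that library was left out, and the overlap given below shares this limit. The part of its antisense share in this was not tested. The count rested on single libraries: it was 832 without the first SCR DMSO library and 1 without the second IFNAR1sg DMSO library. Lower calls in both treatments numbered 40, which is 70.2% of the lower calls in DMSO and 0.361% of those under IFNb. The IFNAR1 region was among them.

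The difference between the genotype effects was tested as an interaction. It was called at 10847 regions (12.2%), 4553 lower and 6294 higher under IFNb relative to DMSO (3713 lower and 2404 higher by the Wald test of DESeq2). Of the 86 list genes 55 were lower and 3 higher, against 596 lower and 4058 higher of all 13955 gene sums. The region count became 5458 and 6006 without the first or second SCR IFNb library, 6246 without the second IFNAR1sg IFNb library and 6909 without the second IFNAR1sg DMSO library. All 20 named regions and all 20 named gene sums passed this test with the sign they had under IFNb. They were chosen by the smallest p under IFNb, and the same libraries enter the interaction, so this adds no separate support. For the IFNAR1 region it was not called (-0.15, adjusted p = 0.884), so a difference of this effect between treatments was not detectable at this depth.

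**Figure D5:**
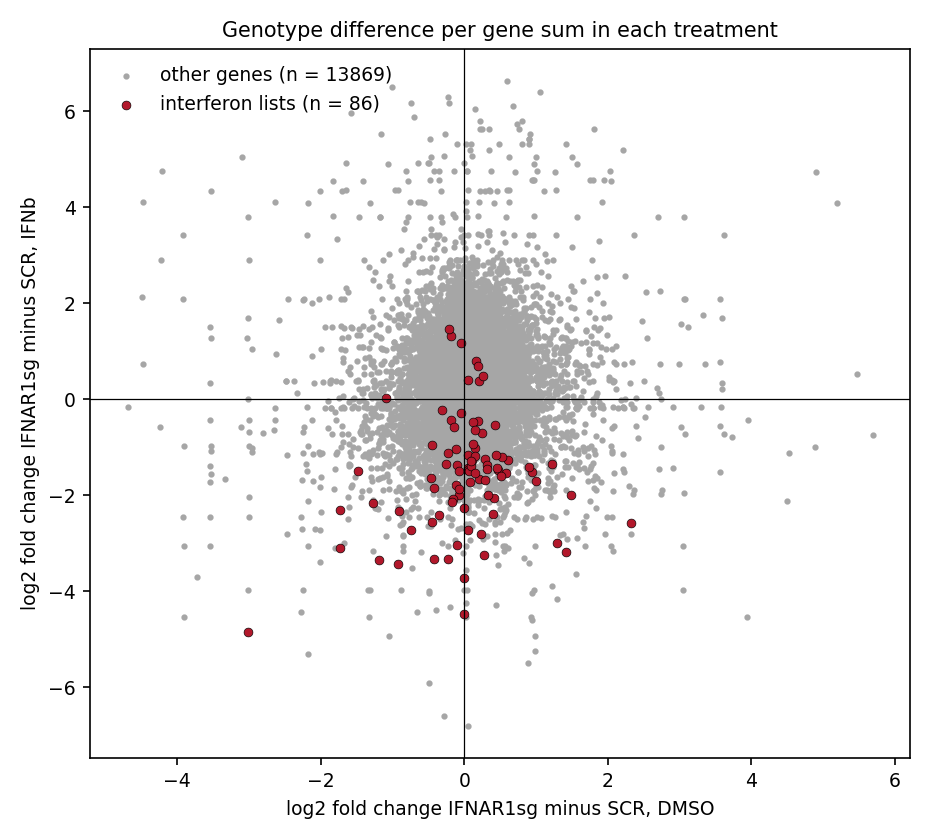
Log2 fold change of each gene sum, IFNAR1sg minus SCR, in DMSO (x axis) and under IFNb (y axis), for 86 interferon list genes (red) and 13869 others (grey). Most list genes lie below 0 on the y axis (70 called lower and 4 higher, median -1.49) and around 0 on the x axis (median 0.06).

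Sums over repeats were the last measure, taken over regions with 1 repeat name and no exon base. Of 1794 repeat subfamilies 91 (5.07%) were lower and 615 (34.3%) higher in IFNAR1sg, with a median of 0.54. With TMM factors from the repeat sums themselves 279 were lower and 145 higher, with a median of 0.03. Such factors centre the set near 0 by construction, so they cannot test its direction. Without TMM factors 29 were lower and 1067 higher, and with DESeq2 size factors 100 and 557. Of the 6 named higher subfamilies 3 were Alu elements, the primate repeats that pair into duplexes when inverted, and L1MA4A and HAL1 belong to the L1 family. AluJr, over 17208 regions, held 2332 and 2469 CPM in SCR IFNb against 3993 and 4316 in IFNAR1sg IFNb (0.79 ± 0.07, adjusted p = 3.65e-19). AluJb, over 26771 regions, held 3516 and 3779 against 5827 and 6541 (0.76 ± 0.06). Intronic regions held 80.8% of the AluJr reads. AluSz6 (0.76), L1MA4A (1.14) and HAL1 (0.88) were higher too. With the repeat sums' own factors these differences shrank and stayed past the threshold, to 0.28 at AluJr, 0.24 at AluJb, 0.25 at AluSz6, 0.63 at L1MA4A and 0.37 at HAL1. With exon-sharing regions added AluJb (0.06) and AluSz6 (0.13) no longer passed the test and HAL1 was at -0.29. As a family SINE/Alu held 35117 and 38564 CPM against 50730 and 56886 (0.55 ± 0.07, adjusted p = 1.19e-08), against a median of 0.38 over the 57 families, 34 of which were called (59.6%). LINE/CR1 (0.70) and LINE/L2 (0.56) differed as much.

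The 6 lower subfamilies with the smallest p were each carried by few loci. MER57F, an endogenous retrovirus repeat, held 29.4 and 25.6 CPM against 3.32 and 4.42 (-2.83 ± 0.29), and 74.7% of its reads lay in a region opposite OR2I1P, 2333 bp past UBD. (CAGCC)n held 55.8 and 68.5 against 11.5 and 5.61 (-2.84 ± 0.23), with 95.7% of reads opposite HLA-B. (TTTTCC)n (-1.65) had 97.7% of its reads in a CHROMR intron opposite PRKRA, and (CCA)n (-1.61) 52.9% in the region 51 bp past RSAD2. (ACAAT)n (-2.20) was a sum of 1 region. (GC)n (-0.76) had 99.6% of its reads opposite ACTG1 and was also lower in DMSO (-0.43, adjusted p = 0.0128). In DMSO it held 864 and 1376 CPM in SCR against 842 and 820 in IFNAR1sg, so that difference lay mainly in the second SCR DMSO library. Among the higher ones (TTCT)n (1.88) had 84.9% of reads in a RIMKLB intron. These sums describe those loci more than the repeat as a class.

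Cell identity was read from markers. Of 11 lung epithelium markers NKX2-1, SFTPB, SFTPC, NAPSA and KRT19 passed the filter on low counts in neither sum. As gene sums 5 were measured, with CDH1 (1.60) and KRT7 (1.03) higher and none lower, near the 40.3% higher over all gene sums. Without the first SCR IFNb library KRT7 (0.69) was not called. KRT8 did not pass the test in introns (0.30, adjusted p = 0.203). It was lower in exon-sharing regions, at 5163 and 4705 CPM against 3784 and 3124 (-0.51). The median over all exon-sharing sums was -0.59. Fibroblast markers had 4 of 11 measured with COL5A1 lower (-1.74), a call lost without either SCR IFNb library (-1.65 and -1.83) or the first IFNAR1sg IFNb library (-1.22). Of immune markers 3 of 13 and of endothelial markers 4 of 7 were measured, and none was called. Among exon-sharing sums the macrophage marker CD68 was lower, at 10.4 and 11.7 against 1.74 and 2.04 (-2.53 ± 0.45). The part of these markers in the results was not tested.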

How the data were processed

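J2-bound RNA was sequenced in 12 libraries made with a stranded total RNA kit. The deposited values are raw counts of reads in genomic regions of each strand, with 46.13% of regions at 0 in every library. Per the submitters' processing notes the tools included STAR and featureCounts, Trim Galore, cutadapt, Trimmomatic and HOMER, with the builds GRCh38 and hg38, without stated roles. Settings for strands and for reads with several positions are not given in the sources used here.

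Regions were placed against GENCODE 29 with Python 3.11.15 and bedtools 2.31.1. Counts were summed per gene (regions in 1 gene on its strand, no exon base), per gene over exon-sharing regions alone, and per repeat name. All 12 libraries entered 1 quasi-likelihood fit per level with edgeR 4.0.16 (R 4.3.3), TMM factors and a filter on low counts (filterByExpr: count 10, total 15, proportion 0.7). The residual degrees of freedom were 6. Sums were scaled as the regions were. Adjusted p-values are Benjamini-Hochberg over all features tested at that level. The SE is the size of the log2 fold change divided by the square root of F and is unreliable near 0. The procedure was tested on simulated counts.

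Regions named were the 10 lower and 10 higher calls with the smallest p whose groups did not overlap, at most 1 per gene. Gene sums named were the 10 lower and 10 higher, repeats the 6 lower and 6 higher. Of each list every measured member of up to 8 was named, otherwise the 4 with the smallest p. The members and lists were chosen with earlier results of these data known. Exon-sharing gene sums, each class's own scaling, sums' own TMM factors and the IFNb contrast within IFNAR1sg were added after seeing the data. Alternatives, with DESeq2 1.42.0 among them, are given in the closing section. The 4 MPS1i libraries entered no contrast. They took part in the filter on low counts, the TMM factors, the estimate of spread and the correlations of same-numbered libraries. Intervals for single libraries are not given, and counting error alone does not cover the spread between libraries. Values of 1 list member are not reported here.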

Additional observations from a re-analysis of the deposited data

Results flagged for a closer look

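The genotype difference itself differed between IFNb and DMSO, by the interaction term of the edgeR fit, at 3 levels of the data. At 10847 of 89111 regions the difference under IFNb was not that in DMSO, and 4553 of these were lower and 6294 higher. Among gene sums it was so at 4654, with 596 lower and 4058 higher, and among repeat subfamilies at 406, with 56 lower and 350 higher. With the sums' own TMM factors the balance was 1454 lower and 1773 higher for gene sums and 152 lower and 74 higher for repeat subfamilies. The SCR IFNb libraries, which enter each of these terms, had the fewest regions with reads and the highest exon-sharing share of the 12 libraries, and the part of this was not tested. At the named repeats the 6 higher and 5 of the 6 lower subfamilies passed the same test with the same sign. (GC)n did not (adjusted p = 0.0591). These repeats too were chosen by the smallest p under IFNb, from libraries that enter this term.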

How the results depend on the processing

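Over all alternatives 138 named features gave 1926 values, of which 1803 kept direction and side of the threshold, 52 lost the call, 22 gained it and 49 changed sign. Calls over regions under IFNb, 24528 as reported, were 15268 with each class scaled within itself (8167 lower, 7101 higher), 14552 by the Wald test of DESeq2 (8618 lower, 5934 higher), 11793 with no filter and 13490 to 18926 leaving out 1 library. Without TMM factors they split into 4828 lower and 23377 higher, and with library sizes of regions sharing no exon base into 7742 and 18142. Gene sums, 6584 as reported, were 5376 to 6093 leaving out 1 library, and split into 2317 lower and 2458 higher with their own TMM factors and into 2271 and 4201 with exon-sharing regions. Exon-sharing sums, 2668 as reported, were 1401 (969 lower, 432 higher) without TMM factors, 1191 (543 and 648) with their own and 1992 to 2366 leaving out 1 library. Repeat subfamilies, 706 as reported, were 1096 (29 and 1067) without TMM factors, 424 (279 and 145) with their own and 491 to 620 leaving out 1 library. The DMSO comparison, 69 as reported, gave 105 after thinning to the smallest library, 44 over regions sharing no exon base, 19 with no filter and 1 to 832 leaving out 1 library. The interaction, 10847 as reported, gave 7127 with each class scaled within itself, 6117 by the Wald test (3713 lower, 2404 higher), 3479 with no filter and 5458 to 9848 leaving out 1 library. IFNb against DMSO in IFNAR1sg, 178 as reported, gave 268 with exon-sharing regions and 72 to 151 leaving out 1 library. With no filter more features enter the adjustment. For the other changes the cause was not tested.

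Over the 15 pairs of groups the correlation of the deviations of same-numbered libraries ranged from -0.349 to 0.478 over 13729 regions. Between the genotypes it was -0.013 under IFNb, 0.063 in DMSO and 0.346 with MPS1i. Not every pair exceeded the 0.1 required, so the numbers were not taken as pairs. With the replicate number as a block the DMSO comparison gave 196 calls, and the others moved less: 24773 regions, 6593 gene sums, 719 repeat subfamilies and 2753 exon-sharing sums under IFNb, 11517 for the interaction and 200 within IFNAR1sg.

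Log2 differences that changed sign were as follows. With exon-sharing regions in the sums they were -0.63 at TXNRD1, -0.18 at CMIP, -0.29 at LMNB1, -0.26 at TBK1, -0.45 at DHX9, -0.21 at TRIB3, -0.51 at KRT8, -0.21 at TPX2, -0.74 at MDM2, -0.70 at JAK1, -1.09 at IFNAR1, -0.0419 at HNRNPC, -0.75 at ZC3HAV1 and -0.29 at HAL1. With the sums' own TMM factors they were -0.32 at ACTA2, -0.17 at CGAS, -0.23 at IRF2, -0.31 at KRT8, -0.0749 at SESN2, -0.15 at TBK1, -0.30 at TRIB3 and -0.11 at TYK2. Without TMM factors they were 0.17 at ADAR, 0.23 at CD8A, 0.0002 at DDX60, 0.23 at HERC6, 0.30 at HERPUD1, 0.15 at KRT18, 0.0202 at PECAM1 and 0.37 at XBP1. With library sizes of regions sharing no exon base they were 0.0154 at CD8A, 0.0065 at HERC6, 0.08 at HERPUD1 and 0.15 at XBP1. After thinning they were 0.0296 at CD8A, 0.0264 at PPP1R15A and 0.21 at XBP1. Leaving out 1 library at a time they ranged from -0.30 to 0.67 at ACTA2, -1.98 to 0.55 at CD8A, -1.75 to 0.0829 at COL6A3, -0.12 to 4.15 at ERG and at TEK, -0.34 to 0.0888 at HERPUD1, -0.83 to 0.15 at PECAM1, -1.39 to 0.12 at PPP1R15A, -0.17 to 1.70 at TYK2, -1.57 to 0.38 at VWF and -0.28 to 0.18 at XBP1. For markers of other cell types that were not called, a direction was not detectable at this depth.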
